A study of Mus musculus with 9 samples.

Results

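The 10 immediate response genes of the T cell receptor described here are Nr4a1, Nr4a2, Nr4a3, Egr1, Egr2, Egr3, Irf4, Nfatc1, Myc and Cd69, chosen by name from the 45808 gene rows of the count table. Of these, 9 had enough counts to be tested, among 7858 genes tested in all, and Egr3 had 0 counts in all 9 libraries. RNA was sequenced from activated ICOS+ CD4 T cells sorted out of MC38 tumours of C57BL/6J mice, 12 days after the tumour cells were injected. MC38 is a mouse colon carcinoma line that grows in this strain, and ICOS is a costimulatory receptor carried by activated T cells. The mice had been given anti-CTLA-4 (n = 3), anti-PD-1 (n = 3) or were labelled controls (n = 3), with 1 library per mouse. All 3 groups therefore carry the tumour and the same sort gate, and neither tumour-free tissue nor ICOS-negative cells were part of the comparison. Antibody clones, doses, schedule and the control treatment were not given.

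When a T cell receptor binds its antigen, calcium and kinase signals switch on a first wave of genes before new protein is needed. The NR4A and EGR families, Irf4, Myc and the short NFATc1 isoform are transcription factors of that wave, and the surface protein CD69 is its classical marker. Nr4a1 (also called Nur77) is widely used as a reporter of recent receptor signalling, and Irf4 and Myc are known to scale with the strength of the signal. CTLA-4 and PD-1 are inhibitory receptors that dampen these signals, CTLA-4 by competing for the ligands of CD28 and PD-1 by recruiting phosphatases, which is why the genes were read across the antibody groups.

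Levels are given as CPM, the counts of a gene scaled to 1000000 gene counts in its library. Gene counts summed to 25530333 to 41508589 per library, so that 3 counts, the limit that a count of 0 allows, equal 0.0723 to 0.118 CPM. The libraries differed in how many genes they captured: 5382, 2662 and 5124 genes reached 5 CPM in anti-CTLA-4 replicates 1, 2 and 3, 5496, 4209 and 5878 in anti-PD-1 replicates 1, 2 and 3, and 6051 to 6309 in the control libraries. Anti-CTLA-4 replicate 2 stood apart. Its 13 T cell markers summed to 4219 CPM, whereas those of the other 8 libraries summed to 10016 to 13093 CPM, with Cd3e at 0.59 CPM and Cd4 at 24.5 CPM, although Cd3d at 696 CPM, Cd3g at 649 CPM and Trac at 632 CPM were higher there than in any other library. Its 14 macrophage and monocyte markers summed to 4995 CPM, against 195 to 1013 CPM elsewhere, with Lyz2 at 1492 CPM and Tyrobp at 1874 CPM, although of the same list C1qa stood at 0.0843 CPM, Fcer1g at 0.0562 CPM and Cd14 at 0. The low T cell sum depends on the scale. With the TMM scaling factors that the fits use, 0.4027 for this library, it lies within the range of the other 8. The macrophage sum stays the highest with those factors. Cd8a had no count in any library, Cd8b1 stood at 125 CPM in anti-PD-1 replicate 3 and at 0.118 CPM or less elsewhere, and the 6 markers of NK cells had at most 3 counts in each library. Results that rest on anti-CTLA-4 replicate 2 are therefore given with and without it, and its part in them beyond that was not tested.

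**Figure D1:**
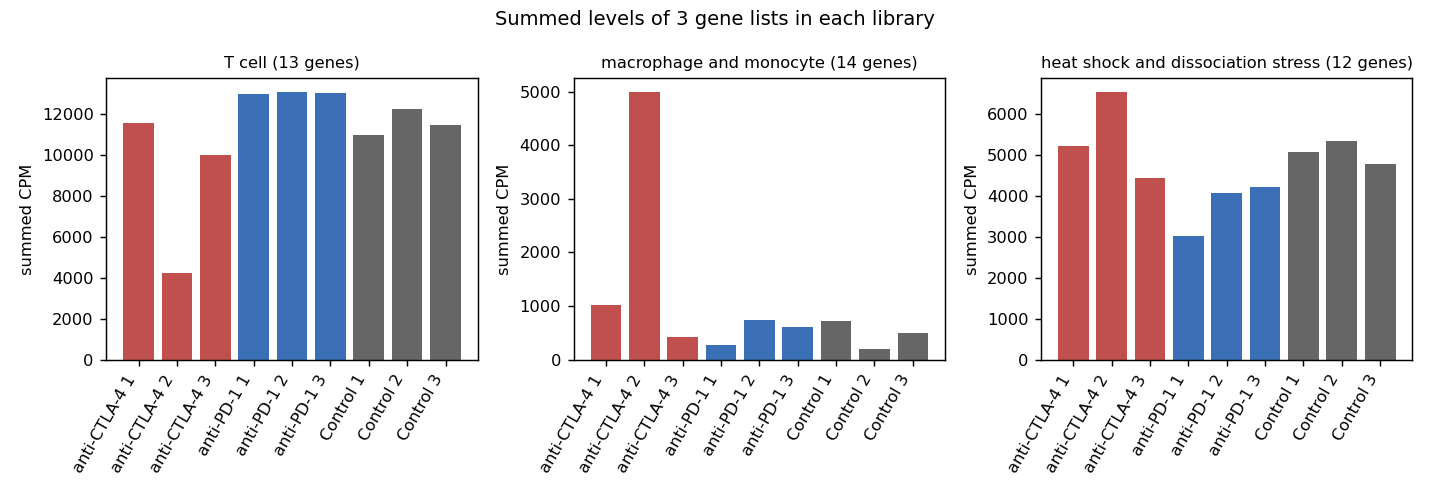
Summed CPM (y axis) of the T cell, the macrophage and monocyte, and the heat shock and dissociation stress lists in each library (x axis), 1 bar per library, anti-CTLA-4 in red, anti-PD-1 in blue and controls in grey. Anti-CTLA-4 replicate 2 has the lowest T cell sum, 4219 CPM, and the highest macrophage sum, 4995 CPM. The anti-PD-1 heat shock sums, 3004 to 4220.1 CPM, lie below every other library. The bars carry no TMM factors. With those factors, the T cell sum of anti-CTLA-4 replicate 2 lies within the range of the others, and the anti-PD-1 heat shock sums overlap both other groups.

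The NR4A genes encode orphan nuclear receptors that bind DNA without a known endogenous ligand. They are induced by NFAT and by cAMP response element binding proteins, and in T cells they are known as restraining factors of chronically stimulated cells and as regulators of Foxp3. Nr4a1 lies at chr15:101254269-101274795 on the plus strand, Nr4a2 at chr2:57106830-57124003 on the minus strand and Nr4a3 at chr4:48045153-48086447 on the plus strand (GRCm38, GENCODE M21). Their promoters are shown because the 3 family members share a dense run of one element there. Each is the stretch before the RefSeq start that holds no annotated exon base, 5′ to 3′ on the gene's strand, from the RefSeq promoter table (GRCm38.p6), and capitals mark TGACG or its reverse complement CGTCA, the half-site of the cAMP response element. The start used for Nr4a1 is an internal one, downstream of the outermost annotated start of the gene.
Nr4a1, chr15:101266596-101266845: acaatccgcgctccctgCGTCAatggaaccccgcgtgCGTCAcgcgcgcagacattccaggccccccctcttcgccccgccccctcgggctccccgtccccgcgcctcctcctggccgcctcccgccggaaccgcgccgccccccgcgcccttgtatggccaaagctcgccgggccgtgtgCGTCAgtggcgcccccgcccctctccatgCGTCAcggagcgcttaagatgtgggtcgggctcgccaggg
Nr4a2, chr2:57124004-57124253: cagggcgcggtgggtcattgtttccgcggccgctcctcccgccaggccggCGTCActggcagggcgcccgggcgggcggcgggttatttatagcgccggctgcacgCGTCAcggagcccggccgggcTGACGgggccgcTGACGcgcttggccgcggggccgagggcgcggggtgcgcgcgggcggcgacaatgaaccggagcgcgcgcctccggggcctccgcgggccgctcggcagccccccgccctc
Nr4a3, chr4:48045055-48045152: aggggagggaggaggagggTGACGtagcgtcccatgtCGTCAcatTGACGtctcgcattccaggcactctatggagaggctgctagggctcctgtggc

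Over the full window of 300 bases, from 250 before to 50 after the start, the promoters of Nr4a1, Nr4a2 and Nr4a3 each held 4 half-sites on either strand, of which 3 of the 4 fall in the shorter stretch printed for Nr4a3. Among all 32851 windows of that length, 20.8% held the half-site at least once and 0.231% held it 4 times or more. The whole element, TGACGTCA, was in 1.79% of all windows and in none of these. The EGR site GCGNGGGCG was in the windows of Nr4a1 and Nr4a2 and in 5.55% of all windows, and the NFAT core GGAAA, searched on both strands, was in that of Nr4a2 and in 61.3% of all windows. These matches describe letters and not binding, which was not measured here.

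Nr4a1 was the most evenly detected of the 10 genes. It stood at 559, 158 and 720.3 CPM under anti-CTLA-4, at 292, 139 and 336 CPM under anti-PD-1 and at 182, 685 and 586 CPM in the control libraries. Each antibody group overlapped the controls, and anti-CTLA-4 overlapped anti-PD-1 only through replicate 2, at 158 CPM. Group means were 479 ± 289 CPM under anti-CTLA-4, 256 ± 103 CPM under anti-PD-1 and 484 ± 266 CPM in controls (SD, n = 3 each). With the TMM factors that the fits use, Nr4a1 had 497, 393 and 680.2 CPM under anti-CTLA-4 and 252, 167 and 285 CPM under anti-PD-1, which do not overlap. On that scale such a gap was found for Nr4a1 and Cd69 and for 3.67% of all tested genes. The TMM factor of anti-CTLA-4 replicate 2 is 0.4027, so its scaled values are raised more than those of any other library.

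Nr4a3 was lower in every anti-PD-1 library than in every control. It stood at 729, 54.4 and 522 CPM under anti-CTLA-4, at 62.7, 90.1 and 250.1 CPM under anti-PD-1 and at 392, 794 and 387 CPM in controls. The lowest value of all 9 belonged to anti-CTLA-4 replicate 2, and the other anti-CTLA-4 libraries stood above every anti-PD-1 library. The control mean was 524 ± 233 CPM (SD, n = 3).

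Nr4a2 followed another order. It stood at 367, 0.197 and 169.7 CPM under anti-CTLA-4, at 213, 139 and 108 CPM under anti-PD-1 and at 312, 80.4 and 21.8 CPM in controls. The highest and the lowest value both fell in the anti-CTLA-4 group, the anti-PD-1 libraries lay within the control range, and all groups overlapped. Nr4a2 was thus the NR4A gene with the narrowest anti-PD-1 group, 153 ± 54.3 CPM, and the widest control group relative to its mean, 138 ± 154 CPM (SD, n = 3 each), while anti-CTLA-4 averaged 179 ± 183 CPM.

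The EGR genes encode zinc finger factors downstream of the Ras and MAP kinase arm of the receptor. Egr2 and Egr3 are known for limiting T cell activation and for inducing inhibitors of signalling, and Egr1 for activating early cytokine genes. Egr1 (ENSMUSG00000038418) stood at 29.0, 419 and 0.245 CPM under anti-CTLA-4, at 83.6, 0.151 and 136 CPM under anti-PD-1 and at 123, 160.4 and 73.1 CPM in controls. The controls lay within a narrow band, and each antibody group held a library with fewer than 10 counts, anti-CTLA-4 replicate 3 and anti-PD-1 replicate 2. The highest value, 419 CPM, was in anti-CTLA-4 replicate 2, the library whose T cell sum was low on CPM, and the other anti-CTLA-4 libraries were below every control.

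Egr2 (ENSMUSG00000037868, chromosome 10, 67535475 to 67542188) was the lowest of the tested genes. It stood at 167, 0 and 38.6 CPM under anti-CTLA-4, at 0.118, 50.4 and 0.117 CPM under anti-PD-1 and at 3.88, 0.0965 and 81.0 CPM in controls. In 4 of the 9 libraries it had at most 10 counts, at least 1 of them in each group, and all groups overlapped. One of its RefSeq promoter windows is shown because it holds both the cAMP response element half-site and the serum response element core, or CArG box, that links Egr genes to MAP kinase signalling. The start it precedes is an internal one of the gene. Capitals mark TGACG or CGTCA and the CArG box.
Egr2, chr10:67537619-67537868, plus strand: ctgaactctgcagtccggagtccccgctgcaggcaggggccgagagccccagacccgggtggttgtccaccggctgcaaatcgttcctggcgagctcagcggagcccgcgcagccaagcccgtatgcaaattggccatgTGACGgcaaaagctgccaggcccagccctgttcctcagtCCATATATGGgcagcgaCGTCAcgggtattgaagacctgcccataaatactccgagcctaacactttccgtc

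The Egr2 stretch holds 2 half-sites and 1 CArG box. The CArG box, searched on both strands, was in 1.63% of all 32851 windows, and among the 5 of the 10 genes with a window in the table it was found for Egr2. No window of those 5 genes held the AP-1 site TGANTCA, which was in 7.81% of all windows. Egr3 (ENSMUSG00000033730, chromosome 14, 70077203 to 70082614) had 0 counts in every library, as did 49.5% of the 20911 protein-coding genes of the table. At this depth a level of up to 0.0723 to 0.118 CPM per library would not have been detectable, and a gene whose RNA was lost in amplification cannot be told apart from a silent one. Its family member Egr4 was also at 0 throughout.

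Irf4 encodes an interferon regulatory factor that pairs with BATF to drive effector programmes and is required by effector regulatory T cells. Irf4 (ENSMUSG00000021356, chromosome 13, 30749226 to 30766976) stood at 275, 1.49 and 265 CPM under anti-CTLA-4, at 7.79, 172 and 112 CPM under anti-PD-1 and at 29.0, 360.5 and 332 CPM in controls. Each group held 1 library far below the rest, anti-CTLA-4 replicate 2, anti-PD-1 replicate 1 and control replicate 1. All groups overlapped, although anti-CTLA-4 replicates 1 and 3 exceeded every anti-PD-1 library.

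Nfatc1 encodes the calcineurin-regulated factor whose own induction amplifies the calcium signal. Nfatc1 (ENSMUSG00000033016) lies on chromosome 18 from 80606205 to 80713071, as does Egr1 from 34859823 to 34864984. Nfatc1 stood at 79.7, 0.0843 and 149 CPM under anti-CTLA-4, at 74.8, 243 and 5.96 CPM under anti-PD-1 and at 328, 138 and 79.7 CPM in controls. The control mean was the highest, 182 ± 129.9 CPM, against 76.1 ± 74.3 CPM under anti-CTLA-4 and 108 ± 122 CPM under anti-PD-1 (SD, n = 3 each), and all groups overlapped. The counts are per gene, so the inducible short isoform was not separated from the long ones. An annotated antisense gene lies over Nfatc1 but shares no exon base with it, and no other of the 10 genes overlaps another gene's exons in GENCODE M21.

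Myc encodes the factor that turns on growth and metabolism in activated T cells. Myc (ENSMUSG00000022346, chromosome 15, 61985391 to 61990374) stood at 63.1, 0.0281 and 149 CPM under anti-CTLA-4, at 74.3, 0.121 and 0.205 CPM under anti-PD-1 and at 88.2, 33.5 and 87.1 CPM in controls. Every control library had Myc well above the limit of detection, whereas it had at most 10 counts in anti-CTLA-4 replicate 2 and in anti-PD-1 replicates 2 and 3. The anti-PD-1 mean, 24.9 ± 42.8 CPM, rested on replicate 1, against 70.6 ± 74.6 CPM under anti-CTLA-4 and 69.6 ± 31.3 CPM in controls (SD, n = 3 each).

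Cd69 encodes a C-type lectin that pulls the exit receptor S1PR1 off the cell surface and so holds activated cells in tissue. Cd69 (ENSMUSG00000030156, chromosome 6, 129267325 to 129275436, minus strand) stood at 534, 457 and 165 CPM under anti-CTLA-4, at 139.9, 62.8 and 126 CPM under anti-PD-1 and at 184, 561 and 270.4 CPM in controls. Every anti-PD-1 library was below every library of both other groups. The means were 385 ± 195 CPM under anti-CTLA-4, 109.7 ± 41.2 CPM under anti-PD-1 and 339 ± 198 CPM in controls (SD, n = 3 each). With 457 CPM, Cd69 was the highest of the 10 genes in replicate 2 of anti-CTLA-4. Cd69 is not restricted to T cells, and myeloid cells can carry it too.

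**Figure D2:**
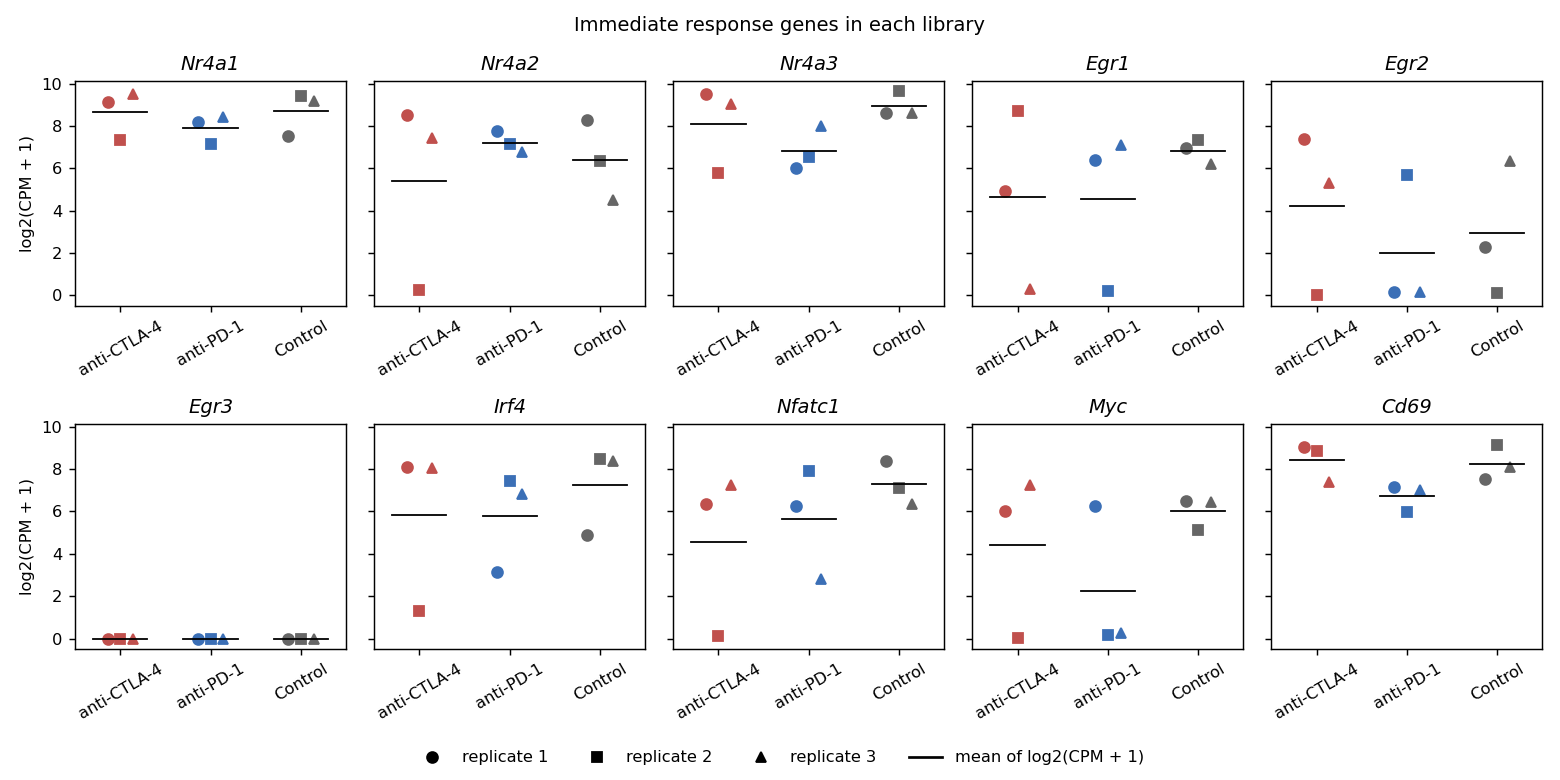
Level of each of the 10 genes as log2(CPM + 1) (y axis) in each library by group (x axis), with a symbol per replicate and a line at the group mean of log2(CPM + 1). Nr4a1, Nr4a3 and Cd69 are high in all 9 libraries, Egr3 is at 0 in all, and the other genes drop to near 0 in single libraries, most often in anti-CTLA-4 replicate 2.

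The 10 genes thus split by how steadily they were detected. Nr4a1, Nr4a3 and Cd69 had over 1000 counts in all 9 libraries, and their log2(CPM + 1) spanned 2.37, 3.84 and 3.14 between the lowest and the highest library. The other 6 tested genes spanned 7.18 to 8.51, where the median tested gene spanned 6.68. A narrower range was found for 4.99% of tested genes in the case of Nr4a1, 11.2% for Nr4a3 and 8.44% for Cd69. These genes were also abundant. The mean CPM of Nr4a1, Nr4a3 and Cd69 was above that of 96.0%, 95.2% and 92.8% of tested genes. Their ranges were not compared with those of equally abundant genes, so the part of abundance was not tested. Of the 81 values of the 9 tested genes, 64 (79.0%) were over 1000 counts, 6 (7.41%) between 11 and 1000 and 11 (13.6%) at 10 or fewer, against 47.8%, 20.3% and 31.8% over all tested genes. Anti-CTLA-4 replicate 2 held 4 of those 11 low values, and Nr4a2, Egr2, Nfatc1 and Myc were the genes concerned.

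Per kilobase of exon, and averaged over the 9 libraries, the level was 116 ± 66.3 CPM per kb for Nr4a1, 60.9 ± 46.5 for Nr4a3, 42.7 ± 29.2 for Cd69, 38.6 ± 30.5 for Nr4a2, 35.2 ± 28.9 for Irf4, 25.4 ± 28.6 for Egr1, 20.3 ± 18.8 for Myc, 16.3 ± 14.4 for Nfatc1 and 11.2 ± 16.7 for Egr2 (SD, n = 9). The range of mean ± SD of each gene overlapped that of its neighbour in that order. The length used was the union of all annotated exons of a gene, 6.51 kb for Cd69 and 3.51 kb for Nr4a1. The order of the genes, in each group as well, depends on that choice of length. Nr4a1 had the highest mean in each group, at 137 ± 82.5 CPM per kb under anti-CTLA-4, 72.8 ± 29.5 under anti-PD-1 and 138 ± 75.9 in controls (SD, n = 3 each). The second place differed. It was held by Nr4a3 under anti-CTLA-4, at 72.7 ± 57.8 CPM per kb, and in controls, at 87.6 ± 39.0, but by Nr4a2 under anti-PD-1, at 37.7 ± 13.4, where Nr4a3 averaged 22.4 ± 16.9.

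By its title the study asks if blocking CTLA-4 and blocking PD-1 work by different cellular mechanisms, and each antibody was set against the controls and against the other antibody. In anti-CTLA-4 against control mice, no immediate response gene passed the test, and the fitted changes pointed both ways. None of the 9 passed an adjusted p of 0.05 in edgeR's quasi-likelihood test, where 29 of 7858 genes did (0.369%), and none had an unadjusted p under 0.05, as 11.3% of all genes had. DESeq2 called none of the 8 genes it gave a p-value, where it called 558 of 5576 genes. Of the 8, 1 had an unadjusted DESeq2 p under 0.05, as did 1189 of the 5576. The largest fitted log2 changes were 1.87 ± 1.62 for Egr1 and 1.42 ± 2.97 for Egr2 (± SE), with edgeR adjusted p of 0.826 and 1. Cd69 had 1.10 ± 1.17 with an adjusted p of 0.958, against 0.20 ± 0.87 without anti-CTLA-4 replicate 2, 0.19 with library totals only and 3.71 with RLE factors. Nfatc1 had -1.10 ± 1.90 with an adjusted p of 1, and Nr4a3 rounded to 0 with an SE of 1.15. The median over the 9 genes was 0.42, against 0.01 over all tested genes, with 6 above 0. No gene of the 9 had its anti-CTLA-4 libraries all above or all below the controls, as 1.57% and 10.4% of tested genes had. The Egr1 value rests on anti-CTLA-4 replicate 2, and without that library it turned to -2.89 ± 2.67 with an edgeR adjusted p of 0.839. Without it, the remaining anti-CTLA-4 libraries lay below every control for Egr1 and for no other of the 9, where 13.9% of all genes did so.

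In anti-PD-1 against control mice, Nr4a3 and Cd69 were lower in all 3 anti-PD-1 libraries than in all 3 controls, and neither passed the adjusted test. Such a gap in that direction was found for 2 of the 9 genes and for 7.33% of all tested genes. The fitted log2 changes were -1.77 ± 1.19 for Nr4a3, with an unadjusted p of 0.136, and -1.44 ± 1.18 for Cd69, with an unadjusted p of 0.224, both with an edgeR adjusted p of 1. All groups share 1 estimate of the spread, so every library enters these errors. Without anti-CTLA-4 replicate 2, Nr4a3 had a change of -1.77 with an SE of 0.61 and an edgeR unadjusted p of 0.0034, and its adjusted p of 0.582 missed the threshold. Cd69 then had -1.46 ± 0.80, with an unadjusted p of 0.0677 and an edgeR adjusted p of 0.582. None of the 9 genes was called by edgeR, where 6 of 7858 were (0.0764%), and none had an unadjusted p under 0.05, where 6.01% of all genes had. DESeq2 called none of 8 at either cut-off, where it called 421 of 5576 genes and gave 703 an unadjusted p under 0.05.

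The other changes against controls were -0.74 ± 1.07 for Nr4a1, -1.42 ± 2.66 for Myc, -0.91 ± 1.66 for Irf4, -0.63 ± 1.57 for Egr1, -0.32 ± 1.88 for Nfatc1, -0.19 ± 2.91 for Egr2 and 0.35 ± 1.71 for Nr4a2, each with an edgeR adjusted p of 1. The Myc value rests on anti-PD-1 replicate 1, and without that library it was -8.49 with an edgeR adjusted p of 0.744. Of the 9 fitted changes, 8 were below 0 with TMM factors and with library totals only, and 7 with RLE factors, under which Egr2 turned to 0.16. Their median was -0.74, against 0.07 over all tested genes. The anti-PD-1 and control libraries also differed in marker sums. The 12 genes of heat shock and dissociation stress, of which 11 were tested, summed to 3004 to 4220.1 CPM under anti-PD-1 and 4771 to 5325 CPM in controls. The 13 T cell markers, all tested, summed to 12973 to 13093 CPM under anti-PD-1 and 10961 to 12244 CPM in controls. With the TMM factors that the fits use, the heat shock sums of anti-PD-1 and control libraries overlap, while the T cell sums stay apart. Immediate early genes can also be induced while tissue is dissociated. The part of either list in the values of Nr4a3 and Cd69 was not tested. In bulk RNA, fewer cells expressing a gene and less RNA of it per cell cannot be told apart.

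In anti-CTLA-4 against anti-PD-1 mice, Cd69 was higher in every anti-CTLA-4 library, and 8 of the 9 fitted changes were above 0, but edgeR called none. Cd69 had a log2 change of 2.54 ± 1.23, an unadjusted p of 0.0385 and an edgeR adjusted p of 0.341. It was the only one of the 9 genes with an unadjusted p under 0.05, where 14.1% of all genes had one. DESeq2 gave Cd69 4.97 ± 1.52 with an adjusted p of 0.0108, the only call of any of the 9 genes under any setting. DESeq2 called 847 genes in this comparison, where edgeR called 65, so its call of Cd69 is 1 of many. In each comparison with controls DESeq2 gave a p-value to 5576 genes. Over all settings the adjusted p of Cd69 ranged from 0.0108 to 0.936. Without anti-CTLA-4 replicate 2, edgeR gave Cd69 1.66 ± 0.87, an unadjusted p of 0.0547 and an adjusted p of 0.523. Genes called in the whole table were 65 of 7858 (0.827%), and 2.81% of tested genes shared with Cd69 a higher level in every anti-CTLA-4 library.

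Nr4a3 had 1.77 ± 1.19, Nr4a1 1.16 ± 1.08 and Egr1 2.51 ± 1.66 in that comparison, with edgeR adjusted p of 0.532, 0.783 and 0.521. Irf4 had 0.69 ± 1.65, Myc 1.61 ± 2.68, Egr2 1.61 ± 2.98, Nr4a2 0.14 ± 1.71 and Nfatc1 -0.77 ± 1.89, with edgeR adjusted p of 0.966 to 1. With 1 library left out at a time, the Myc change ranged from 0.40 to 8.66. The median of the 9 was 1.61 with TMM factors, 1.56 with RLE factors and 1.03 with library totals only, with 8 above 0 in each, against -0.05 over all tested genes with TMM factors. Without anti-CTLA-4 replicate 2, 7 were above 0, and Egr1 turned to -2.25 ± 2.58. The other 2 anti-CTLA-4 libraries then exceeded all anti-PD-1 libraries for Nr4a1, Nr4a3, Irf4 and Cd69, 4 of the 9 genes, where 10.2% of all genes did so. Nr4a3 in that fit had 2.21 ± 0.65, an unadjusted p of 0.000756 and an edgeR adjusted p of 0.281, and Nr4a1 had 1.36 ± 0.62, an unadjusted p of 0.0275 and an adjusted p of 0.523. The heat shock sums were 4432 to 6529 CPM under anti-CTLA-4 and 3004 to 4220.1 CPM under anti-PD-1. The T cell marker sums were 4219 to 11575 CPM under anti-CTLA-4 and 12973 to 13093 CPM under anti-PD-1. With TMM factors the heat shock sums of these groups overlap, while the T cell sums stay apart. The part of either list was not tested. The comparison shares its anti-PD-1 libraries with the one against controls, so the low anti-PD-1 values of Nr4a3 and Cd69 enter both.

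**Figure D3:**
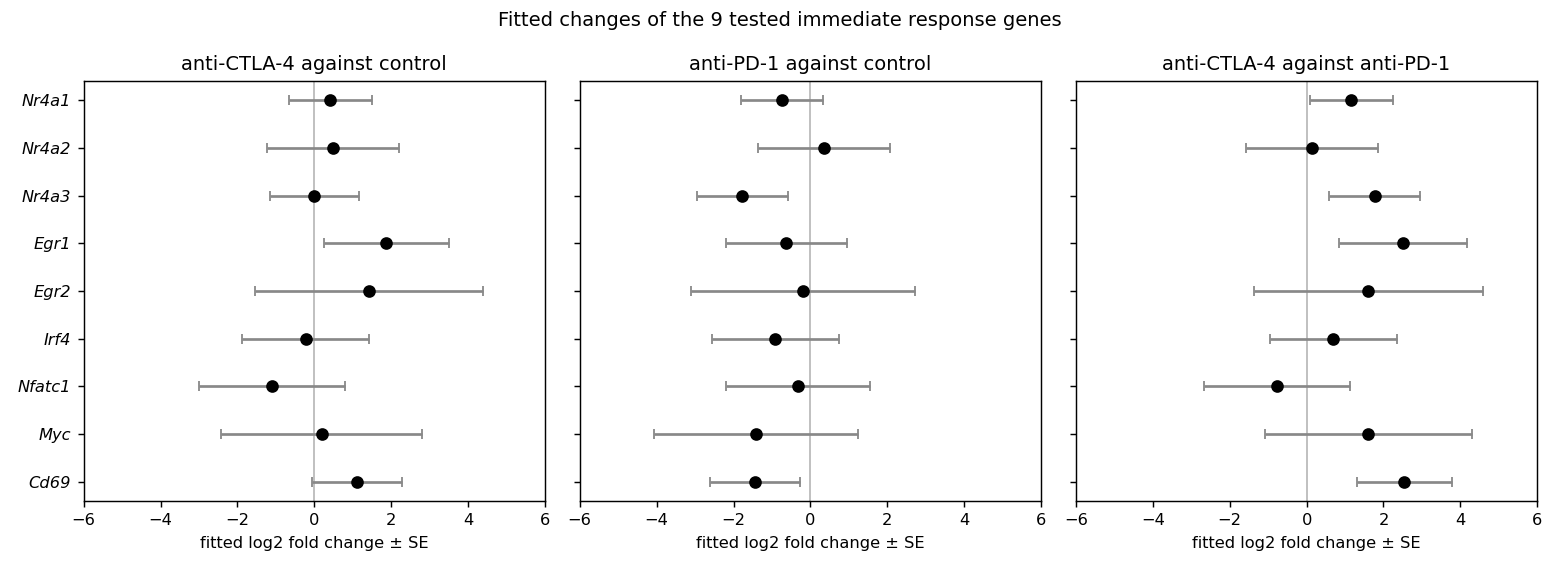
Fitted log2 fold change (x axis, edgeR, point with a bar of 1 SE each way) of the 9 tested genes (y axis) in the 3 comparisons. The points of anti-PD-1 against control lie below 0 for 8 genes and those of anti-CTLA-4 against anti-PD-1 above 0 for 8, and no gene passed the adjusted threshold of edgeR in any panel.

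Other genes of the pathway were read from lists by role. Of 22 further immediate early genes, such as the AP-1 subunits and the early KLF and ZFP36 factors, 17 were tested and none passed in any comparison. Their median log2 change was 0.74 in anti-CTLA-4 against control, 0.02 in anti-PD-1 against control and 0.78 in anti-CTLA-4 against anti-PD-1, beside 0.01, 0.07 and -0.05 over all tested genes. Rel, the NF-kB subunit that receptor signals induce, was the most abundant, at 976, 711 and 962 CPM under anti-CTLA-4, 248, 610.5 and 1308 CPM under anti-PD-1 and 708, 1224 and 667 CPM in controls. Zfp36l1, which promotes the decay of AU-rich mRNAs, stood at 521, 220.3 and 888 CPM under anti-CTLA-4, 834, 723 and 1096 CPM under anti-PD-1 and 518, 1429.6 and 1097 CPM in controls. The groups overlapped for both genes. Egr4 and Ier3 had 0 counts in all libraries.

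**Figure D4:**
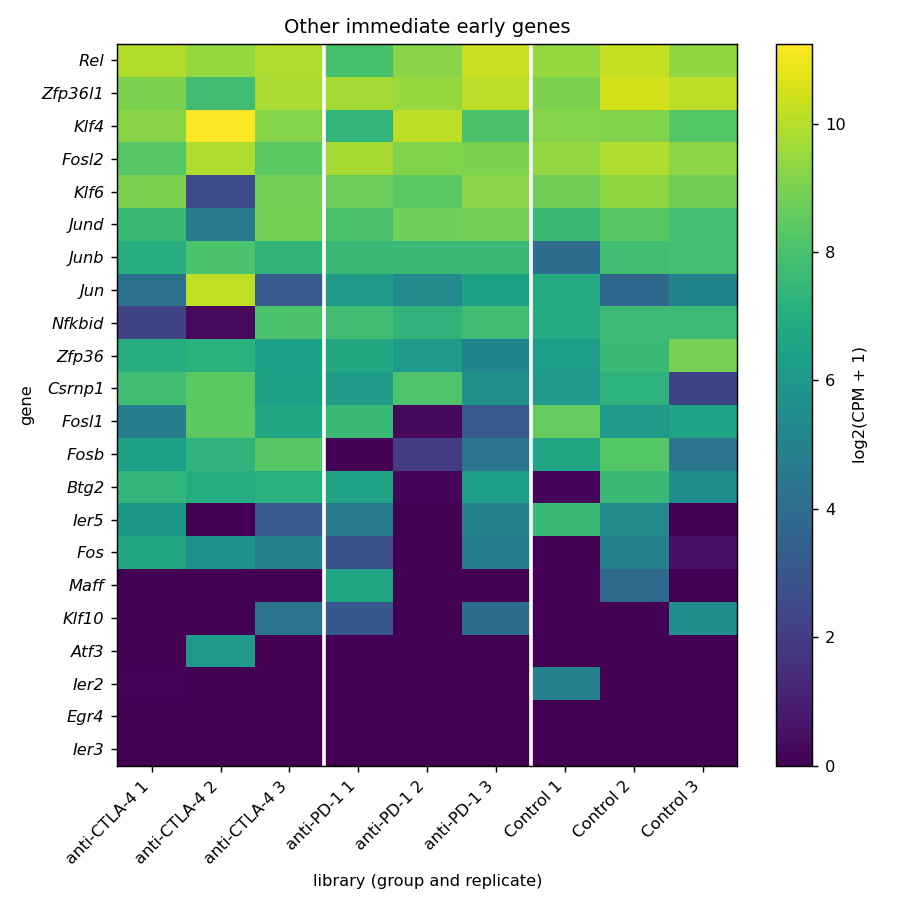
Heat map of log2(CPM + 1) (colour) for the 22 other immediate early genes (rows, by mean level) in each library (columns, white lines between groups). Rel, Zfp36l1, Klf4 and Fosl2 are bright in nearly every library, Klf4 and Jun are brightest, at 2421 and 1140.0 CPM, in replicate 2 of anti-CTLA-4, and Egr4 and Ier3 are at 0 throughout.

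Feedback inhibitors of the receptor, the genes that end the signal, showed no call among 19 tested of 24. Their median was -0.35 in anti-CTLA-4 against control, -0.03 in anti-PD-1 against control and -0.12 in anti-CTLA-4 against anti-PD-1. Tnfaip3, which encodes the NF-kB inhibitor A20, stood at 916, 815 and 781 CPM under anti-CTLA-4, 621, 942 and 762 CPM under anti-PD-1 and 615, 1385 and 696 CPM in controls. On CPM it was thus steady in all 9 libraries, anti-CTLA-4 replicate 2 included. With the TMM factors that the fits use, Tnfaip3 was highest in anti-CTLA-4 replicate 2. Sh2d2a, the T cell adaptor that binds LCK, stood at 762, 10.9 and 489 CPM under anti-CTLA-4, 574, 246 and 819 CPM under anti-PD-1 and 372, 721 and 772 CPM in controls, with its lowest value in anti-CTLA-4 replicate 2.

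The calcineurin and NFAT pathway, which acts upstream of Nr4a and Egr genes, showed no call among 20 tested of 22. Its median was -0.39 in anti-CTLA-4 against control, 0.49 in anti-PD-1 against control and -0.45 in anti-CTLA-4 against anti-PD-1. Nfat5, an NFAT relative that responds to osmotic stress and does not need calcineurin, stood at 1542, 456 and 1596 CPM under anti-CTLA-4, 1898, 1705 and 1568 CPM under anti-PD-1 and 1338, 782 and 1182 CPM in controls. Every anti-PD-1 library was above every control for Nfat5, with a fitted change of 0.89 ± 0.62 and an edgeR adjusted p of 1. A higher level in every anti-PD-1 library was found for 3.45% of tested genes. Itpr2, a calcium release channel, stood at 83.2, 9.59 and 293 CPM under anti-CTLA-4, 398, 615 and 468 CPM under anti-PD-1 and 189, 374 and 614 CPM in controls, and its anti-CTLA-4 values lay below every anti-PD-1 value, as for 6.95% of tested genes.

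Reported target genes of NFAT, NR4A or EGR2 and EGR3 in T cells were called in no comparison, with 17 tested of 21. Their median was 0.01 in anti-CTLA-4 against control, 0.48 in anti-PD-1 against control and 0.08 in anti-CTLA-4 against anti-PD-1. Il2ra, the high-affinity IL-2 receptor chain, stood at 5793, 2179 and 4853 CPM under anti-CTLA-4, 6727, 5288 and 6489.7 CPM under anti-PD-1 and 5987, 8761 and 9748 CPM in controls. Foxp3, the lineage factor of regulatory T cells, stood at 3028, 898 and 2863 CPM under anti-CTLA-4, 3186, 2841 and 3901 CPM under anti-PD-1 and 2362, 2727 and 3231 CPM in controls. On CPM Il2ra was lower in every anti-CTLA-4 library than in every control, a gap shared by 10.4% of tested genes, although anti-CTLA-4 replicate 1 was close to control replicate 1. With the TMM factors that the fits use, these groups overlapped. The fitted change was -0.40 ± 0.34 with an edgeR adjusted p of 0.808.

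Among the targets and partners of Myc, 21 of 24 were tested and 2 passed, both higher in anti-CTLA-4 than in anti-PD-1 mice. In that comparison 0.827% of all tested genes passed. Both were carried by anti-CTLA-4 replicate 2. Nme1, a nucleoside diphosphate kinase, stood at 28.0, 585 and 0.0306 CPM under anti-CTLA-4, 0.0783, 0.0906 and 0.263 CPM under anti-PD-1 and 0.289, 6.53 and 0 CPM in controls. Its fitted log2 change was 11.8 with an edgeR adjusted p of 0.00126. Cad, the enzyme that opens pyrimidine synthesis, stood at 0.131, 597 and 0.0612 CPM under anti-CTLA-4, 0.0392, 0.242 and 1.40 CPM under anti-PD-1 and 52.1, 5.21 and 61.9 CPM in controls. Its fitted log2 change was 9.92 with an edgeR adjusted p of 0.00422. Every anti-PD-1 library was below every control for Cad, as for 7.33% of tested genes, with a fitted change of -6.01 and an edgeR adjusted p of 0.443. Anti-CTLA-4 replicates 1 and 3 were below every control too. Changes of genes this near 0 depend on the prior count of the fit. Without anti-CTLA-4 replicate 2 the edgeR adjusted p against anti-PD-1 was 0.612 for Nme1 and 0.967 for Cad. The change was then 6.51 for Nme1 and turned to -2.49 for Cad. With all libraries but RLE factors the edgeR adjusted p was 0.155 for Nme1 and 0.200 for Cad, at changes of 14.78 and 12.96. With library totals only it was 0.439 for both, at changes of 10.43 for Nme1 and 8.46 for Cad. The read-through gene Gm20390 shares 418 exon bases with Nme1 on the same strand, 12.5% of the exons of Nme1, and its effect on the count was not tested. The median of the list was 0.29 in anti-CTLA-4 against control, -0.25 in anti-PD-1 against control and 0.23 in anti-CTLA-4 against anti-PD-1, and no list member passed in the comparisons with controls.

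Partners and targets of Irf4 showed no call among 9 tested of 13, with medians of -0.67, -0.15 and 0.04 in anti-CTLA-4 against control, anti-PD-1 against control and anti-CTLA-4 against anti-PD-1. Maf, a factor of IL-10-producing and follicular T cells, stood at 700.3, 95.0 and 41.9 CPM under anti-CTLA-4, 658, 601 and 956 CPM under anti-PD-1 and 362, 548 and 547 CPM in controls. All anti-PD-1 libraries exceeded all controls for Maf, as for 3.45% of tested genes, with a fitted change of 0.82 ± 0.97 and an edgeR adjusted p of 1. Prdm1, which encodes BLIMP1, stood at 162, 0.394 and 123 CPM under anti-CTLA-4, 139, 555 and 146 CPM under anti-PD-1 and 304, 214 and 392 CPM in controls. Its anti-CTLA-4 libraries were all below the controls, as for 10.4% of tested genes, with a fitted change of -1.51 ± 1.44 and an edgeR adjusted p of 0.889.

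Of the genes that act with CD69 on tissue exit and homing, 7 of 9 were tested and none passed. In anti-CTLA-4 against anti-PD-1 mice, 4 of the 7 had an unadjusted p under 0.05, among them Klf3 and Itgae above 0 and Cxcr6 below it. Klf3, a KLF family repressor, stood at 961, 1520.1 and 306 CPM under anti-CTLA-4, 188, 437 and 71.9 CPM under anti-PD-1 and 805, 843 and 541 CPM in controls. Its change was 2.72 ± 0.80 with an edgeR adjusted p of 0.0618. On CPM Klf3 was, like Cd69, lower in every anti-PD-1 library than in every control, as were 7.33% of tested genes. With TMM factors the anti-PD-1 and control libraries overlapped for Klf3. Median changes of the list were 1.46 in anti-CTLA-4 against control, 0.52 in anti-PD-1 against control and 0.80 in anti-CTLA-4 against anti-PD-1.

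Surface activation markers other than Cd69 were called in no comparison, with 11 of 11 tested and medians of 0.60 in anti-CTLA-4 against control, 0.32 in anti-PD-1 against control and 0.56 in anti-CTLA-4 against anti-PD-1. Cd28, the costimulatory receptor, stood at 3461, 564 and 2043 CPM under anti-CTLA-4, 3410.5, 3843 and 3262 CPM under anti-PD-1 and 3539, 3032 and 2476 CPM in controls. Icos, on which the cells were sorted, stood at 1986, 507 and 1706 CPM under anti-CTLA-4, 2547, 2876 and 2869 CPM under anti-PD-1 and 1851, 2042 and 2866 CPM in controls. Both were thus lowest in anti-CTLA-4 replicate 2. Heat shock and dissociation stress genes had medians of 0.77, -0.14 and 1.35 in anti-CTLA-4 against control, anti-PD-1 against control and anti-CTLA-4 against anti-PD-1, with no call among 11 tested. Hsp90ab1, a cytosolic chaperone, stood at 1752, 1824 and 2182 CPM under anti-CTLA-4, 1311, 1376 and 1777 CPM under anti-PD-1 and 1750.4, 1854 and 1969 CPM in controls. Hspa8, the constitutive HSP70, stood at 1362, 1529.6 and 570.4 CPM under anti-CTLA-4, 546, 974 and 847 CPM under anti-PD-1 and 848, 939 and 913 CPM in controls. The anti-PD-1 values of both genes overlapped those of the controls.

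For each tested gene, up to 2 genes with the most similar profile over the 9 libraries were sought among 7042 candidates, by the mean absolute difference of log2(CPM + 1) after centring each gene on its own mean. The closest match of all was Mapk1ip1l for Myc, at 0.25. Mapk1ip1l stood at 77.9, 0.0281 and 87.6 CPM under anti-CTLA-4, 87.7, 0.846 and 0.234 CPM under anti-PD-1 and 109, 36.3 and 90.1 CPM in controls, so it was near 0 in the same 3 libraries as Myc. Nr4a1 was most like Canx at 0.34 and Kif21b at 0.40, and Cd69 most like Sh3bgrl3 at 0.40 and Nfkbiz at 0.43. Nfkbiz, an atypical IkB protein, stood at 277, 954 and 205 CPM under anti-CTLA-4, 181, 128 and 148 CPM under anti-PD-1 and 322, 493 and 324 CPM in controls, and its anti-PD-1 libraries were below all others, as for Cd69. Nfkbiz was picked for its likeness to Cd69, so this shared order is no separate result. Nr4a3 was most like Atp13a3 at 0.53 and Psmb1 at 0.56, Nr4a2 like Hspa4 at 0.55 and Mapre1 at 0.56, and Irf4 like Mkl1 at 0.57 and Smap2 at 0.62. Egr1 was most like Mdm2 at 0.57 and Spen at 0.63, Egr2 like Ahi1 at 0.84, and Nfatc1 like Golgb1 at 0.45 and Prc1 at 0.49. None of the 9 tested genes had another of the 10 among its candidates, since these were left out, and with 9 libraries and so many candidates a close match is a description of these libraries.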

How the data were processed

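RNA was measured in 9 libraries, 1 per mouse, made with a single-cell amplification kit from sorted cells because RNA was scarce, and read as paired ends, per the labels' protocols. The authors deposited raw counts per gene symbol. The names TopHat2, HTSeq, DESeq2 and GRCm38 come per the submitters' processing notes, and for versions, annotation and counting settings nothing is given in the sources used here. Summary entries that name no gene were left out, and genes held 32.9% to 40.7% of all counts. Without molecular identifiers, the limit of 3 counts covers counting error only.

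CPM was computed on gene counts. The test was edgeR 4.0.16 (R 4.3.3) quasi-likelihood with robust fit, TMM factors (0.4027 for anti-CTLA-4 replicate 2, 0.8329 for replicate 2 of anti-PD-1, otherwise 1.059 to 1.259), filterByExpr with a minimum count of 10, all 9 libraries, group as the only term, and Benjamini-Hochberg adjustment over 7858 genes at 0.05. An SE was obtained as the change divided by the root of its F and is approximate. Alternatives were DESeq2 1.42.0 on the same genes, RLE factors, library totals only, no filter, a replicate block and each library left out, and, added after seeing the data, a fit without the 2 libraries that held the fewest genes. The code was tested on simulated data.

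The 10 genes and all lists were chosen with earlier results of these data known. Of each list, genes that passed were named, or else the 2 with the highest mean CPM. A few named by these rules are not reported here. Candidates for similar profiles had a mean of at least 5 CPM, and predicted genes, clones and pseudogenes were left out. Motifs were searched in RefSeq promoter windows (GRCm38.p6), which matched 5 of the 10 genes. Exon lengths and positions came from GENCODE M21.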

Additional observations from a re-analysis of the deposited data

How the results depend on the processing

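The number of genes called depended on the setting. Among the immediate response genes there were 0 calls except under DESeq2. Under edgeR few of all tested genes were called in any setting, so 0 calls among 9 genes do not show that these genes are stable. In anti-CTLA-4 against control, anti-PD-1 against control and anti-CTLA-4 against anti-PD-1, in that order, edgeR called 29, 6 and 65 genes. RLE factors gave 0, 0 and 0 calls with 1118, 511 and 1261 genes at an unadjusted p under 0.05, library totals only gave 0, 0 and 6 with 697, 414 and 884, no filter gave 64, 2 and 98, and DESeq2 gave 558, 421 and 847. A fit without the 2 libraries that held the fewest genes gave 1, 2 and 16. Leaving out 1 library gave 0 to 79, 0 to 5 and 6 to 145, and the calls were 0, 1 and 6 without anti-CTLA-4 replicate 2. In the first and the last comparison they were 79 and 145 without anti-CTLA-4 replicate 1, and 72 and 131 without anti-CTLA-4 replicate 3. In the first comparison they were also 15 and 16 without replicates 2 and 3 of the controls, and 52 when replicate 2 of anti-PD-1 was left out, and in the second 0 to 2 without any one control, anti-PD-1 replicate 1 or anti-PD-1 replicate 3. RLE factors moved the median log2 change of all tested genes to 0.56, 0.26 and 0.45 and library totals only to -0.34, -0.12 and -0.21, where TMM factors gave 0.01, 0.07 and -0.05. DESeq2 called 1 of the 9 genes, Cd69 in anti-CTLA-4 against anti-PD-1, at a log2 change of 4.97 with an adjusted p of 0.0108. The cause of these differences was not tested.

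Over 27 fitted changes of the 9 genes and 405 alternative values, 366 kept the direction and the side of the threshold, 38 turned direction and 1 became a call. In 12 of the 27 no alternative turned the direction, among them Nr4a1, Nr4a3 and Cd69 in both comparisons with anti-PD-1. In anti-CTLA-4 against control, Nr4a1 turned to -0.02 with library totals only, Nr4a3 to 0.94 with RLE factors and with DESeq2, and, without the 2 libraries with the fewest genes, Nr4a3 to 0.43, Egr1 to -2.89 and Irf4 to 0.35. In anti-PD-1 against control, Egr2 turned to 0.16 with RLE factors and with DESeq2. In anti-CTLA-4 against anti-PD-1, without the same 2 libraries, Egr1 turned to -2.84 and Nfatc1 to 1.66. With 1 library left out, the changes in anti-CTLA-4 against control ranged from -0.01 to 0.66 for Nr4a1, -0.54 to 1.98 for Nr4a2, -0.48 to 0.43 for Nr4a3, -2.89 to 2.28 for Egr1, -0.35 to 5.17 for Egr2, -0.76 to 0.35 for Irf4 and -1.05 to 0.80 for Myc. In anti-PD-1 against control they ranged from -0.18 to 1.84 for Nr4a2, -7.80 to 3.56 for Egr2 and -2.12 to 0.45 for Nfatc1. In anti-CTLA-4 against anti-PD-1 they ranged from -0.86 to 0.75 for Nr4a2, -2.25 to 3.15 for Egr1, -0.14 to 9.21 for Egr2 and -1.76 to 1.03 for Nfatc1.

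The replicate numbers did not pair the samples: the 9 correlations of same-numbered libraries lay between -0.03 and 0.02. With the replicate block, 10, 1 and 12 genes were called and none of the 9. Under the replicate block Irf4 turned to 0.90 and Myc to -1.98 in anti-CTLA-4 against control, Egr1 to 0.06 and Egr2 to 0.82 in anti-PD-1 against control, and Nr4a2 to -0.38 in anti-CTLA-4 against anti-PD-1. Egr3 and the values at 10 counts or fewer carry the widest counting error, and whether depth or amplification set them was not tested.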

Other observations

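The genes given here fall outside the rule for named genes and were chosen from the pathway lists after their values were seen, and other genes of those lists had p-values as low. Fosb, an AP-1 subunit, stood at 82.4, 158 and 319.8 CPM under anti-CTLA-4, at 0.0392, 2.87 and 19.4 CPM under anti-PD-1 and at 96.8, 314 and 20.5 CPM in controls. Every anti-PD-1 library was below all others, as for Cd69, although control replicate 3 was close. Gaps in that direction were found for 7.33% of tested genes against controls and 2.81% against anti-CTLA-4. The log2 change of Fosb was -4.12 ± 2.04 in anti-PD-1 against control, with an unadjusted p of 0.0435 and an edgeR adjusted p of 0.823, and 5.26 ± 2.16 in anti-CTLA-4 against anti-PD-1, with an unadjusted p of 0.0147 and an adjusted p of 0.326. Fos, a related subunit, stood at 109, 53.7 and 29.8 CPM under anti-CTLA-4, 5.88, 0.0302 and 25.7 CPM under anti-PD-1 and 0.0241, 28.7 and 0.447 CPM in controls. All anti-CTLA-4 libraries exceeded all others for Fos, although control replicate 2 and anti-PD-1 replicate 3 were close to anti-CTLA-4 replicate 3. A higher level in every anti-CTLA-4 library was found for 1.57% of tested genes against control and 2.81% against anti-PD-1. The edgeR adjusted p of Fos was 0.872 against control and 0.816 against anti-PD-1.

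Klf4, a KLF factor, stood at 601, 2421 and 585 CPM under anti-CTLA-4, 166, 1126 and 266 CPM under anti-PD-1 and 570.2, 546 and 313 CPM in controls, with an edgeR adjusted p of 0.0539 in anti-CTLA-4 against control. Jun stood at 18.1, 1140.0 and 8.26 CPM under anti-CTLA-4, 70.1, 38.5 and 82.4 CPM under anti-PD-1 and 116, 12.8 and 32.4 CPM in controls, with an edgeR adjusted p of 0.104 in anti-CTLA-4 against anti-PD-1. Both peaked in anti-CTLA-4 replicate 2, the library with the high macrophage sum, and the part of that library's other cells was not tested. S1pr1, the exit receptor that CD69 removes from the surface, stood at 71.4, 0 and 144 CPM under anti-CTLA-4, 5.37, 0 and 0.0292 CPM under anti-PD-1 and 1.35, 26.5 and 40.7 CPM in controls, with an edgeR adjusted p of 0.543 in anti-CTLA-4 against anti-PD-1.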
